A study of Mus musculus with 3 samples.

Results

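Interferon-stimulated genes, the antiviral and regulatory genes switched on by type I and type II interferons, were followed through 3 RNA libraries of primary mouse peritoneal macrophages. The members are 37 gene symbols of a named list; 33 were found among the 20574 symbols of the deposited tables, and Irf1, Trim30a, Irgm1 and Adar were not analysed here. The first library came from macrophages kept for 5 h with 5 apoptotic cells per macrophage, the second from macrophages given 100 ng/ml of LPS for 5 h, and the third from untreated macrophages. All 3 are titled as wild type and were grown in DMEM, and cells that had not been engulfed were washed off before harvest. Strain, sex, the number of mice and the kind of cell made apoptotic are not stated in the sources used here; the untreated library has no stated time, so a treatment cannot be told apart from time or handling. Each condition is 1 library, so every difference below is between libraries, without a p-value.

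Interferon alpha and beta bind the receptor IFNAR and activate the kinases JAK1 and TYK2, which leads to the complex ISGF3. This complex contains STAT2 and IRF9 and binds the interferon-stimulated response element (ISRE) in front of many antiviral genes. The gamma-activated site (GAS) is the matching element of genes that answer to interferon gamma. In macrophages LPS engages TLR4, whose adaptor TRIF leads through TBK1 and IRF3 to interferon beta, which then acts back on the cell, so that many of these genes are known as secondary targets of LPS.

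The ISRE is a repeat of the letters GAAA, and its core was searched as GAAANNGAAA or, on the other strand, TTTCNNTTTC, in windows from 250 bases before to 50 bases after each annotated start (RefSeq, GRCm38.p6, the assembly also called mm10). Of the 33 members found, 25 had such a window and 15 of these held at least 1 ISRE core, 7 of them at least 2. The core was present in 3.44% of all 32851 windows of that length, or in 3.99% of the 27025 genes that have one. The GAS core, TTCNNNGAA, which reads the same on both strands, was in the windows of 7 of the 25 members and of 9.55% of all genes. It overlapped an ISRE core in 1 member, Bst2. A match is a description of the letters and not a site shown to be bound.

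The 180 bases before the start are shown for 9 members that carry the differences below, each 5′ to 3′ on the strand of its gene, with ISRE cores in capitals. The first 6 are genes at least 2-fold higher with LPS than without treatment, and the last 3 are genes that differed between apoptotic cells and no treatment. They lie at chr19:34640709-34640888 (plus strand), chr12:26456453-26456632 (minus strand), chr3:142620483-142620662 (plus strand), chr3:142496754-142496933 (plus strand), chr5:120777660-120777839 (minus strand), chr5:120887614-120887793 (minus strand), chr4:156200819-156200998 (minus strand), chr8:71537473-71537652 (minus strand) and chr7:141266425-141266604 (minus strand) in GRCm38.p6.
Ifit1: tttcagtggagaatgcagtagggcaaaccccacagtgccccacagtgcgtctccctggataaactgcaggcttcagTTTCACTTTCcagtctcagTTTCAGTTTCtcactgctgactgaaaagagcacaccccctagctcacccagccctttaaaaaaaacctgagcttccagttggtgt
Rsad2: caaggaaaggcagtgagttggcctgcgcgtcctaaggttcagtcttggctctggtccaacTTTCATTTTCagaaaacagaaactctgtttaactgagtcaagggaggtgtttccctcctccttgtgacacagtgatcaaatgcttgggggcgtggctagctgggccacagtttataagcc
Gbp2: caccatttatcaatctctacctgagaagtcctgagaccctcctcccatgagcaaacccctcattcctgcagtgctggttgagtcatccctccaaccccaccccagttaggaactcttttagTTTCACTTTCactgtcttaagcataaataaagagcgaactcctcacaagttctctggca
Gbp5: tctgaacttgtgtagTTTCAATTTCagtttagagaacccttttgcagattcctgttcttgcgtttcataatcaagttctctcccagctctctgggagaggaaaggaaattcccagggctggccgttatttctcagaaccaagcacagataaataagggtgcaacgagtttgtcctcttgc
Oas3: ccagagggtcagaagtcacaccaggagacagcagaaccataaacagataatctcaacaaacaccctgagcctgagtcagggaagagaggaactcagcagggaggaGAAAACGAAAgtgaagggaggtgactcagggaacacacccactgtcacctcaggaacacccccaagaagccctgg
Oas1g: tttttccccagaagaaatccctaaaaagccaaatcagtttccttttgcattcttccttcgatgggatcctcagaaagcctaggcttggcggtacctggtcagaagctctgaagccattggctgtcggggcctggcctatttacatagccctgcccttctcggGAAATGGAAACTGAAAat
Isg15: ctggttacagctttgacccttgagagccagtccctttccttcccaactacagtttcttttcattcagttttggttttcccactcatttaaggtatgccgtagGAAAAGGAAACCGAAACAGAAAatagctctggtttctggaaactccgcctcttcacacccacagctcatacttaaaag
Bst2: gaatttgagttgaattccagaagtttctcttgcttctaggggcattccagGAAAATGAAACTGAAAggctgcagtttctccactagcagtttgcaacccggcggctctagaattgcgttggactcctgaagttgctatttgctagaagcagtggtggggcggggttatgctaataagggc
Irf7: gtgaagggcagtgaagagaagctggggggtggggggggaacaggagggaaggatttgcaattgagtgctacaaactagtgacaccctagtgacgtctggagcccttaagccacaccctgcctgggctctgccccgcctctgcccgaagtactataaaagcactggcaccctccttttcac
Ifit1 held 2 separate cores, starting at positions -104 and -85 from the start. In Oas1g, Isg15 and Bst2 cores overlapped, so that the capitals run on as 1 stretch of GAAA repeats: 2 cores in Oas1g and Bst2 and 3 in Isg15. Irf7 held no match to these letters in its window.

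**Figure D1:**
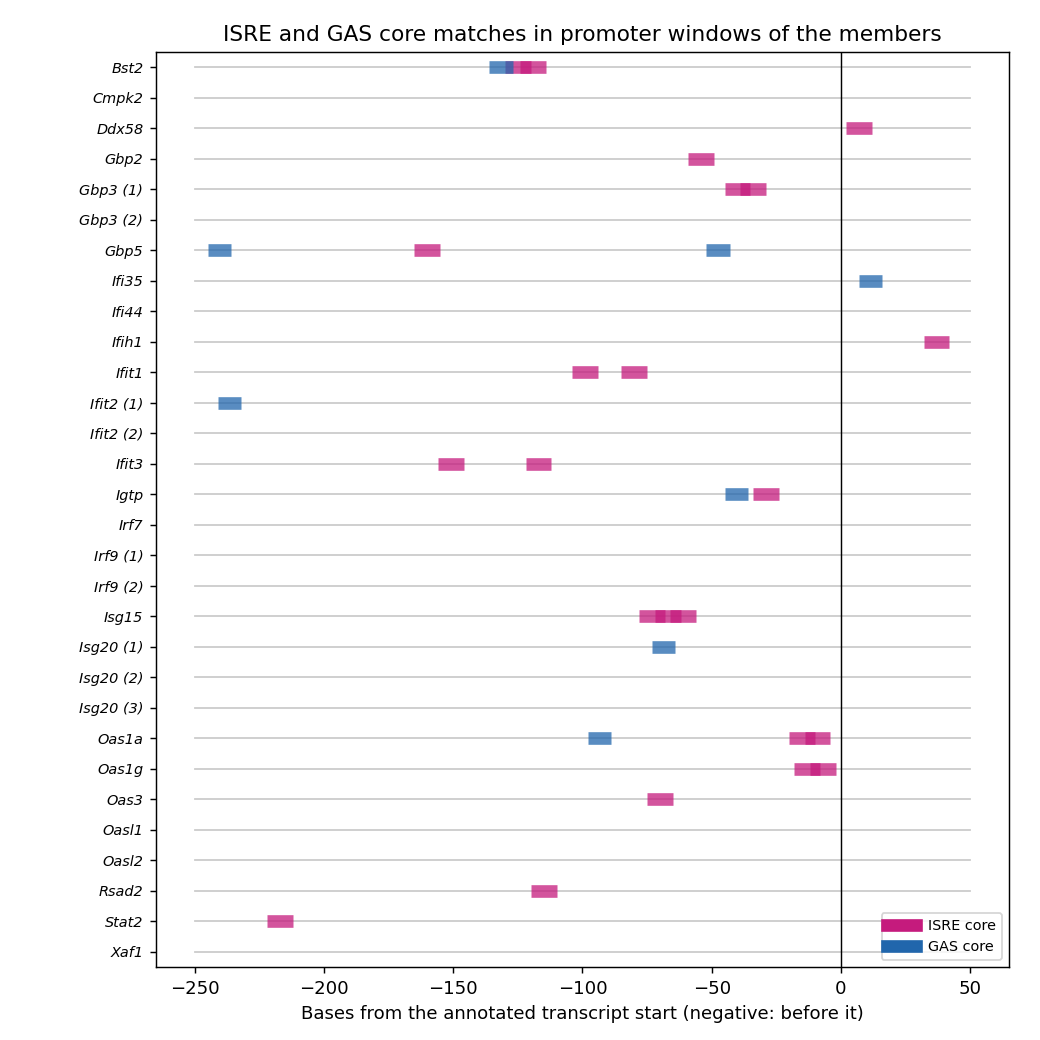
Position of ISRE core (pink) and GAS core (blue) matches, in bases from the annotated transcript start, in the promoter windows of the 25 members that have one; a number in brackets tells several starts of a gene apart. Most ISRE cores lie before the start, starting between position -222 in Stat2 and position -12 in Oas1g, while Ddx58 and Ifih1 have theirs just after it.

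The values are FPKM, that is, fragments for each kilobase of transcript and each 1000000 fragments mapped, and exact zeros are frequent. Ppia, a housekeeping gene, was listed at 0 with apoptotic cells and at 1767 and 1841 FPKM with LPS and without treatment, and Rplp0, a ribosomal protein gene, at 1268, 0 and 1967 FPKM with apoptotic cells, with LPS and without treatment. A 0 can therefore be a failed estimate; ratios were formed only between values above 0, and a member at 0 is reported as listed at 0. A value of 1 was added to each FPKM before the log2 ratio was taken, which shrinks the ratios of weakly expressed genes, and a gene entered where its 3 libraries averaged 1 FPKM or more. At least 2-fold on that scale is counted as higher or lower. From the smallest steps between values, 1 FPKM on a 2 kb transcript stood for about 5.62, 5.29 and 5.81 reads with apoptotic cells, with LPS and without treatment. Reads estimated this way gave each plain FPKM ratio an exact binomial 95% interval, which covers counting error only. Over all genes compared, the median log2 ratio stood at -0.13 for apoptotic cells against no treatment, -0.40 for LPS against no treatment and 0.32 for apoptotic cells against LPS. Median-of-ratios scaling shifted these medians by 0.19, 0.53 and -0.33. In the same order, the higher genes made up 43.0%, 24.5% and 73.9% of all genes past 2-fold as deposited, and 56.4%, 59.9% and 48.1% with that scaling. Of the 33 members found, 22 had a mean of at least 1 FPKM, 7 of them only through their highest library.

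Of 10 macrophage markers 4 were found: Csf1r was listed at 185, 0 and 56.3 FPKM with apoptotic cells, with LPS and without treatment, Cd14 at 555, 0 and 303, Tyrobp at 0, 0 and 413, and Fcgr1 at 3.29, 0.377 and 0.115. In the LPS library the label thus rests on Fcgr1 alone of these 4. Markers of other cell types were above 0 too. Whether that RNA came from cells of the peritoneum or from the added apoptotic cells was not tested. The sum over 6 of 9 plasmacytoid dendritic cell markers, a cell type that also expresses Bst2 and Irf7, was 71.0, 87.0 and 574 FPKM with apoptotic cells, with LPS and without treatment, most of it Ly6d (42.7, 73.9 and 563 FPKM), a gene of B cells as well. Its defining marker Siglech stood at 0.394, 0 and 2.48 FPKM. Sums in the same order were 87.7, 1.95 and 29.6 FPKM over 9 of 9 T cell and thymocyte markers, 119, 224 and 51.5 over 7 of 8 neutrophil markers, 13.4, 9.82 and 93.0 over 5 of 5 mast cell markers, 364, 140 and 447 over 7 of 8 large peritoneal macrophage markers, and 1.04, 0 and 1.80 over 7 of 7 NK cell markers. Single genes made up most of some sums: S100a8 (116, 222 and 48.1 FPKM) that of the neutrophil list, Cxcl13 with apoptotic cells and with LPS (364 and 112 FPKM) and Lyz1 without treatment (349 FPKM) that of the large peritoneal macrophage list. Of the T cell and thymocyte markers 8, 5 and 3 were above 0 with apoptotic cells, with LPS and without treatment. In that order Rag1, the highest in mean, was listed at 41.2, 0.679 and 0 FPKM, and Cd3e at 7.10, 0 and 0 FPKM. Dntt, however, was listed at 13.0, 0.160 and 13.5 FPKM and Cd3g at 10.6, 0 and 12.6 FPKM. Of the large peritoneal macrophage markers 1, 4 and 6 were above 0, with the defining Gata6 at 0, 8.81 and 0 FPKM. Ncr1, Eomes and Elane were listed at 0 in every library. The part of these cells in the differences below was not tested, and in such bulk RNA fewer cells of a type and less RNA per cell cannot be told apart.

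**Figure D2:**
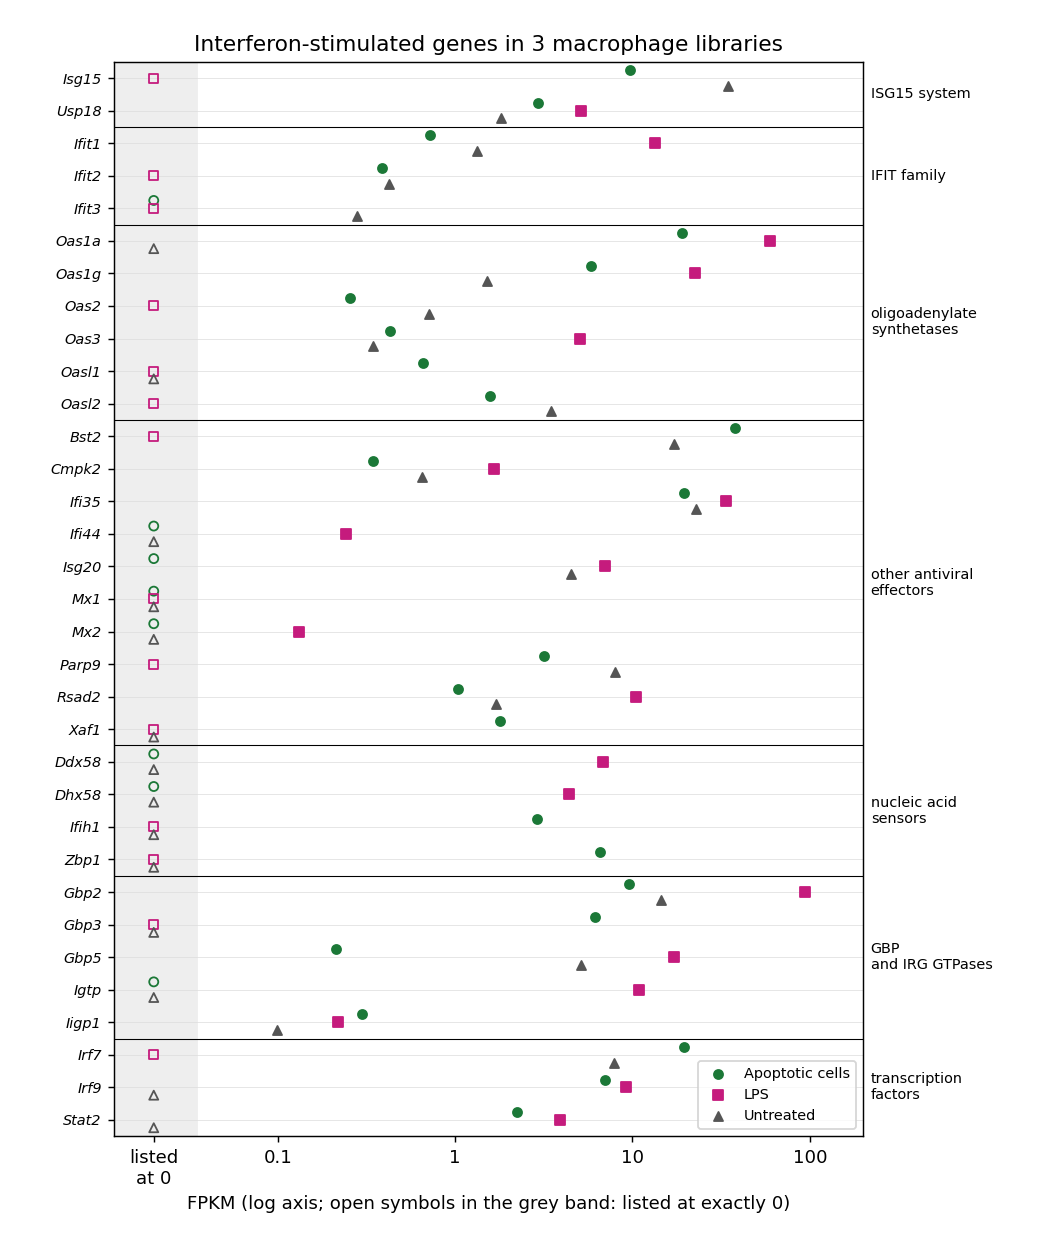
FPKM (log axis) of the 33 members found, grouped by role, with apoptotic cells (green circles), with LPS (pink squares) and without treatment (grey triangles); open symbols in the grey band mark values listed at 0. Gbp2 with LPS, at 93.7 FPKM, is the highest value, and 18 members have their highest value with LPS.

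With LPS most of the interferon-stimulated genes that could be compared were higher than without treatment. Of 9 members above 0 in both libraries and past the mean filter, 7 were at least 2-fold higher and 0 lower; among all 3421 genes compared in the same way, 8.51% were higher and 26.2% lower. The median log2 ratio was 2.10 over these 9 members, 2.50 above the median of all genes. Oas3 passed the mean filter only through its LPS value, so a difference in that gene was needed for it to be counted. A further 8 members were above 0 with LPS and listed at 0 without treatment, and 8 others were listed the other way round.

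Among the IFIT family, RNA-binding proteins that hold back translation of viral messages, Ifit1 stood at 0.726, 13.4 and 1.33 FPKM with apoptotic cells, with LPS and without treatment. The LPS library was the high one and lay 10.1-fold above the untreated library (counting interval 5.17 to 20.0, log2 ratio 2.63). Ifit2 was listed at 0.386, 0 and 0.426 FPKM, and Ifit3 at 0, 0 and 0.281 FPKM, with apoptotic cells, with LPS and without treatment. Ifit3 shares 51.2% of its 50-base stretches with its copy Ifit3b, so its reads may not be separable. Ifit1, Ifit2 and Ifit3 lie on chromosome 19, at 34640871 to 34650009, 34550694 to 34576419 and 34583531 to 34588731 in mm10 (GENCODE M21).

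The oligoadenylate synthetases make the short 2-5A chains that activate RNase L against viral RNA, and of the members compared between LPS and no treatment they held the largest ratio. Oas1g stood at 5.80, 22.5 and 1.52 FPKM with apoptotic cells, with LPS and without treatment, 14.8-fold higher with LPS than without (interval 7.32 to 32.2, log2 ratio 3.22). Oas1a was listed at 19.0, 59.7 and 0 FPKM in the same order. These genes share 57.6% of the 50-base stretches of Oas1a, so their split is uncertain. Their summed FPKM was 24.8 with apoptotic cells and 82.2 with LPS, higher with LPS as for Oas1g alone. Without treatment the sum, 1.52, is that of Oas1g alone, because Oas1a was listed at 0 there. It therefore cannot place the pair against no treatment. Oas3, the largest member of the family, stood at 0.430, 5.06 and 0.343 FPKM, 14.7-fold higher with LPS than without (5.99 to 46.7, log2 ratio 2.17). The remaining members were listed at 0 with LPS: with apoptotic cells and without treatment, Oas2 had 0.255 and 0.716 FPKM, Oasl2 1.57 and 3.47 FPKM, and Oasl1 0.655 FPKM and a listed 0. In mm10 Oas3 lies on chromosome 5 from 120753098 to 120777661, Oas1g from 120876142 to 120887613 and Oas1a from 120896256 to 120907521.

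Of the other antiviral effectors, Rsad2, which encodes viperin, the enzyme that makes a chain-terminating nucleotide, stood at 1.03, 10.5 and 1.70 FPKM with apoptotic cells, with LPS and without treatment. It was 6.21-fold higher with LPS than without (3.76 to 10.3, log2 ratio 2.10). Its neighbour Cmpk2, a mitochondrial nucleotide kinase, had its highest value with LPS as well (0.344, 1.65 and 0.651 FPKM), but its mean was under 1 FPKM. Ifi35, a partner of NMI, varied less, at 19.6, 33.7 and 22.8 FPKM, a log2 ratio of 0.54 for LPS against no treatment; 10.7% of its stretches are shared with Gm11626. Isg20, a 3′ to 5′ exonuclease, was listed at 0, 7.03 and 4.50 FPKM (log2 ratio 0.55, LPS against no treatment), and its counting interval, 0.703 to 3.37 on the plain ratio, included 1. The myxovirus resistance GTPase gene Mx1 was listed at 0 in every library, and Mx2 at 0.131 FPKM and Ifi44 at 0.242 FPKM with LPS only, 2 estimated reads or fewer.

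The guanylate-binding proteins and the immunity-related GTPases act on the vacuoles of intracellular pathogens. Gbp2, the most abundant member with LPS, stood at 9.52, 93.7 and 14.5 FPKM with apoptotic cells, with LPS and without treatment, 6.46-fold higher with LPS than without (5.28 to 8.02, log2 ratio 2.61). Gbp5, which promotes inflammasome assembly, stood at 0.213, 17.1 and 5.11 FPKM, 3.36-fold higher with LPS than without (2.40 to 4.78, log2 ratio 1.57). Both lie on chromosome 3, Gbp2 from 142620602 to 142638008 and Gbp5 from 142493978 to 142522344. Gbp3, which lies between them, had 6.14 FPKM in the apoptotic-cell library and a listed 0 in both others. Igtp, also called Irgm3, was listed at 10.9 FPKM with LPS and at 0 in both others; 12.3% of its stretches are shared with Irgm2. Iigp1 was at 0.300, 0.219 and 0.0990 FPKM, at most 3 estimated reads in a library.

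Usp18, the protease that removes ISG15 from proteins and damps signalling at IFNAR, stood at 2.92, 5.15 and 1.81 FPKM with apoptotic cells, with LPS and without treatment, 2.85-fold higher with LPS than without (1.31 to 7.15, log2 ratio 1.13). Isg15, the ubiquitin-like modifier itself, was listed at 9.73, 0 and 34.7 FPKM in the same order. The cytosolic RNA sensor genes Ddx58, which encodes RIG-I, and Dhx58, which encodes its relative LGP2, were listed at 6.84 and 4.41 FPKM with LPS and at 0 in both other libraries. Of the factors of ISGF3, Irf9 was listed at 7.04, 9.21 and 0 FPKM and Stat2 at 2.25, 3.90 and 0 FPKM, above 0 in both treated libraries.

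All 6 of the members higher with LPS that have a promoter window (Ifit1, Oas1g, Oas3, Rsad2, Gbp2 and Gbp5) held an ISRE core, as the printed sequences show. Of the members higher or lower with apoptotic cells than without treatment, 4 of 5 with a window held one. These counts are to be read beside 15 of all 25 members with a window (60.0%) and 3.99% of all genes. Members with an ISRE core were also among those listed at 0 with LPS, Isg15 and Bst2 for example.

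**Figure D3:**
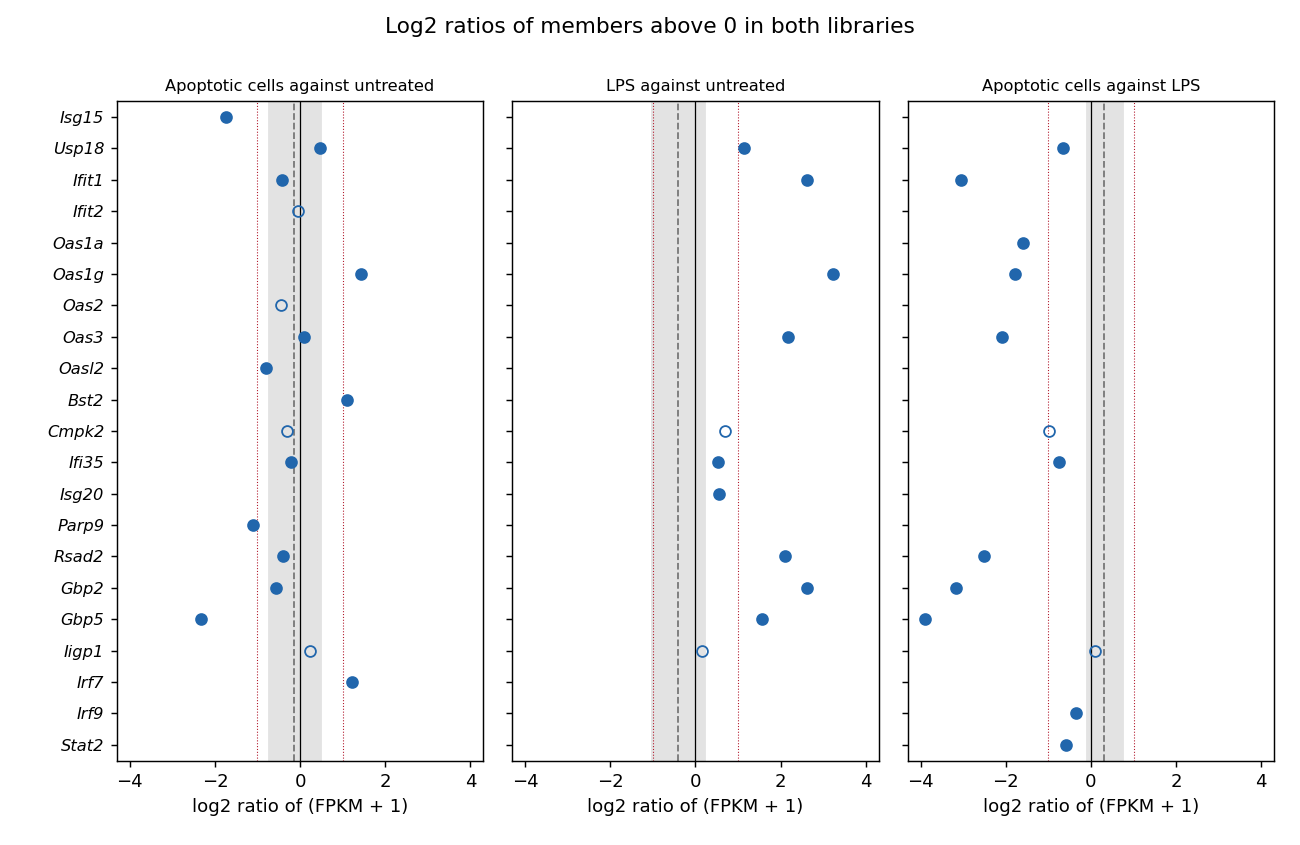
Log2 ratio of (FPKM + 1) of each member above 0 in both libraries, for 3 comparisons; open circles are members with a mean under 1 FPKM, the grey band and dashed line are the quartiles and median of all genes, and dotted lines mark 2-fold. With LPS against no treatment every filled circle is above 0, with 7 of 9 past 2-fold, whereas with apoptotic cells 3 of 13 lie past 2-fold on each side.

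With apoptotic cells the members went both ways against no treatment. Of 13 members compared, 3 were at least 2-fold higher and 3 lower, shares to be read beside 12.4% higher and 16.4% lower among all 3369 genes. The median log2 ratio of the members was -0.41, or -0.27 relative to the median of all genes, with 5 above and 8 below 0. A further 8 members were above 0 with apoptotic cells and listed at 0 without treatment, and 2 the other way round. Oas3 and Oasl2 passed the mean filter only through their highest library, LPS for Oas3 and untreated for Oasl2. The higher members were Oas1g, Irf7 and Bst2. The lower ones were Isg15, Gbp5 and Parp9.

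Irf7, the factor that drives the later wave of interferon alpha genes, had 19.4 and 7.83 FPKM in the apoptotic-cell and untreated libraries and a listed 0 with LPS. It was 2.48-fold higher with apoptotic cells than without (1.80 to 3.55, log2 ratio 1.21). Bst2, which encodes tetherin, the membrane protein that holds budding virus at the cell surface, stood at 37.9 and 17.2 FPKM with apoptotic cells and without, 2.20-fold higher (1.43 to 3.42, log2 ratio 1.10), and was listed at 0 with LPS. Oas1g was 3.82-fold higher with apoptotic cells than without (1.71 to 8.74, log2 ratio 1.43). All 3 counting intervals lie above 1. That of Oas1g does not cover the split of reads with Oas1a, as 54.7% of the stretches of Oas1g are shared. Because Oas1a was listed at 0 without treatment, the pair cannot be placed against no treatment.

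Isg15 was 3.57-fold lower with apoptotic cells than without (2.04 to 6.45, log2 ratio -1.73). Parp9, which works with the ubiquitin ligase DTX3L, stood at 3.19 and 7.95 FPKM with apoptotic cells and without treatment, 2.50-fold lower (1.67 to 3.89, log2 ratio -1.10), and was listed at 0 with LPS. With median-of-ratios scaling the log2 ratio of Parp9 was -0.90, short of 2-fold. Gbp5 was 24.0-fold lower (5.96 to 193, log2 ratio -2.33), on only 2 estimated reads with apoptotic cells against 47 without. Gbp2 stood at 9.52 and 14.5 FPKM with apoptotic cells and without, a log2 ratio of -0.56 with an interval of 1.11 to 2.08 on the plain fold lower. Oasl2 was 2.21-fold lower as a plain ratio (1.19 to 4.62), and its log2 ratio of -0.80 after 1 was added did not reach 2-fold. The intervals of Ifit1, Rsad2, Oas3, Usp18 and Ifi35 included 1, so a difference was not detectable at this depth.

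The sensors Ifih1, which encodes MDA5, and Zbp1, a sensor of left-handed nucleic acid, had 2.90 and 6.54 FPKM in the apoptotic-cell library and a listed 0 in both others. The same held for the apoptosis regulator gene Xaf1, at 1.78 FPKM, and for Gbp3 and Oasl1, given above. Of the 4 sensor genes, then, 2 were above 0 with apoptotic cells, the other 2 with LPS, and none without treatment, and no ratio could be formed for any of them.

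Against LPS, the values with apoptotic cells were lower in all 11 members compared. At least 2-fold, 0 were higher and 7 lower, beside 15.7% higher and 5.54% lower among all 4599 genes, and the median log2 ratio was -1.79, against 0.32 for all genes. Oas3, among the 7 lower, passed the mean filter only through its LPS value, so it could be counted only as lower. A further 12 members were above 0 with apoptotic cells and listed at 0 with LPS, and 6 the other way round. This comparison uses the same LPS and apoptotic-cell libraries as the comparisons above and is no independent evidence of either. Gbp5 was 80.5-fold lower with apoptotic cells than with LPS (20.8 to 638), on 2 estimated reads against 144. Ifit1 was 18.5-fold lower (7.61 to 48.0), Oas3 11.8-fold (5.17 to 33.5), Rsad2 10.2-fold (5.41 to 19.6) and Gbp2 9.84-fold (7.65 to 12.8). Oas1g was 3.88-fold lower (2.63 to 5.99) and Oas1a 3.14-fold (2.50 to 3.99). The ISGF3 factors were closer, with log2 ratios of -0.34 for Irf9 and -0.59 for Stat2. Of the 10 members above 0 in all 3 libraries, 9 had their highest value with LPS and 6 their lowest with apoptotic cells. Among these 6, the intervals of Ifit1, Rsad2, Cmpk2 and Ifi35 against no treatment included 1. Their lowest place is thus within counting error. The 10 include Cmpk2 and Iigp1, which are under the mean filter, and the same count was not made over all genes.

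Of the 33 members, 8, 14 and 14 were listed at 0 with apoptotic cells, with LPS and without treatment. Of 17 members above 0 both with apoptotic cells and without treatment, 7 were listed at 0 with LPS, or 41.2%, against 21.9% of all 4598 such genes. They were Isg15, Ifit2, Oas2, Oasl2, Bst2, Parp9 and Irf7. Of 11 members above 0 with LPS and without treatment, 1 was listed at 0 with apoptotic cells (9.09%, against 18.6% of all genes), and of 13 above 0 in both treated libraries, 3 were listed at 0 without treatment (23.1%, against 38.6% of all genes). Whether any of these zeros is a true absence cannot be read from the files. The members summed to 160, 305 and 127 FPKM with apoptotic cells, with LPS and without treatment, or 0.0810%, 0.153% and 0.0635% of each library's total FPKM. These sums take each listed 0 as 0. The largest parts were Gbp2 (93.7 FPKM) and Oas1a (59.7 FPKM, listed at 0 without treatment) with LPS. With apoptotic cells the largest was Bst2 (37.9 FPKM) and without treatment Isg15 (34.7 FPKM), both listed at 0 with LPS.

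Beyond the members, 52 of 66 other interferon-stimulated genes on a separate list were found. With LPS against no treatment, 6 of 19 compared were at least 2-fold higher and 3 lower, beside 8.51% and 26.2% of all genes, around a median log2 ratio of 0.45, which is 0.85 above that of all genes. The highest in level was Ifitm2, of the membrane proteins that block virus entry, at 244, 749 and 92.1 FPKM with apoptotic cells, with LPS and without treatment. Ifitm3 was listed at 0, 505 and 92.4 FPKM and Mnda at 0, 95.0 and 14.5 FPKM in the same order. Slfn2 was listed at 142, 0 and 181 FPKM, Lgals3bp at 0, 0 and 76.5 FPKM and Lgals9 at 73.7, 74.0 and 39.8 FPKM. Of the 52 genes, 17 were above 0 with LPS and listed at 0 without treatment, and 8 the other way round. Among all 20574 genes these counts were 3432 and 2335. The interferon-induced chemokine gene Cxcl10, chosen after its values were seen, was listed at 0, 24.7 and 2.53 FPKM. The immunoproteasome gene Psmb8 stood at 67.3, 65.0 and 106 FPKM and the peptide transporter gene Tap2 at 16.9, 33.3 and 40.3 FPKM, neither of them past 2-fold with LPS against no treatment. The 3 genes lower with LPS were Psmb9 (log2 ratio -1.62), Trim34a (-1.15) and Dtx3l (-1.13). With apoptotic cells against no treatment, 3 of 19 of these other genes were at least 2-fold higher and 6 lower, beside 12.4% and 16.4% of all genes, with a median of -0.20 against -0.13 for all genes. Ifitm2 was among the 3 higher (log2 ratio 1.40) and Tap2 among the 6 lower (-1.20). For apoptotic cells against LPS 1 of 24 was higher and 5 lower, beside 15.7% and 5.54%, with a median of -0.54 against 0.32.

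**Figure D4:**
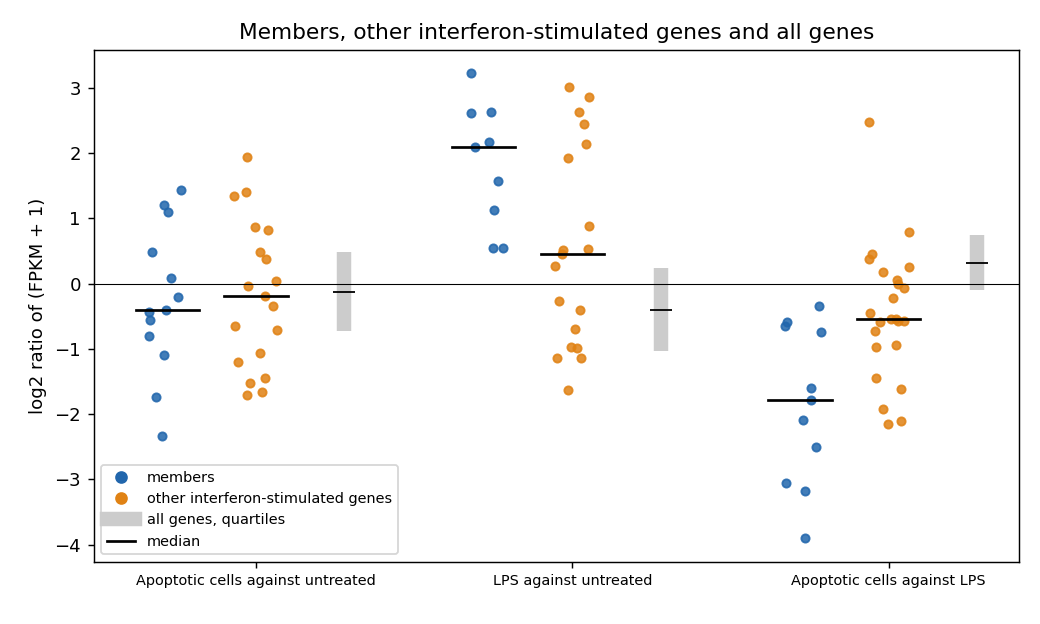
Log2 ratio of (FPKM + 1) for the members (blue), the other interferon-stimulated genes (orange) and all genes (grey bars, quartiles) in 3 comparisons; black lines are medians. With LPS against no treatment the members' median is 2.10, that of the other genes 0.45 and that of all genes -0.40.

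Upstream of these genes, 8 of the 13 ligands and receptors found were listed at 0 in every library, among them Ifnb1, Ifng and 4 interferon alpha genes. Of the receptors, 1 of 4 compared was at least 2-fold higher with apoptotic cells than with LPS, Ifngr1 (log2 ratio 1.07), and none was lower. Among all genes the shares were 15.7% higher and 5.54% lower. Against no treatment 0 of 1 receptor differed by that much with either treatment. Ifnar1, a chain of the type I receptor, was listed at 9.26, 11.5 and 0 FPKM with apoptotic cells, with LPS and without treatment, and Ifngr1, the ligand-binding chain for interferon gamma, at 43.2, 20.0 and 35.8 FPKM. Of 6 signalling genes found, Stat3 alone could be compared with the untreated library (28.4, 48.5 and 68.7 FPKM), with log2 ratios of -1.25 for apoptotic cells and -0.49 for LPS against no treatment. Irf8, a macrophage factor, was listed at 11.9 FPKM with LPS and at 0 in the others. On the route from TLR4 and the nucleic acid sensors to interferon, with 10 of 15 genes found, Ticam1, which encodes TRIF, stood at 11.5, 7.84 and 18.0 FPKM, and Tbk1 was listed at 26.1, 21.5 and 0 FPKM. With LPS against no treatment 2 of 2 genes compared on that route, Ticam1 (log2 ratio -1.10) and Mavs, the adaptor of RIG-I and MDA5 (-1.06), were lower by 2-fold or more, beside 26.2% of all genes. For apoptotic cells 0 of 2 genes passed 2-fold in either direction against no treatment, and 0 of 5 against LPS. Of 10 negative regulators 9 were found, and Socs3, an inhibitor of cytokine signalling, stood at 10.2, 225 and 42.0 FPKM with apoptotic cells, with LPS and without treatment (log2 ratios of -1.94 for apoptotic cells and 2.40 for LPS against no treatment). Socs1, which acts on JAK kinases, was listed at 0, 5.28 and 5.16 FPKM. In that list, 1 of 3 genes compared was higher and 1 lower with LPS against no treatment, beside 8.51% and 26.2% of all genes. With apoptotic cells against no treatment 1 of 2 was lower, beside 16.4% of all genes. With apoptotic cells against LPS, 1 of 5 was higher, Pias1 (log2 ratio 1.42), and 1 lower, Socs3 (-4.33), beside 15.7% and 5.54% of all genes. These lists are too short for their counts to be told apart from such shares.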

How the data were processed

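RNA from primary mouse peritoneal macrophages was sequenced in 3 libraries, grouped by the sample labels. Per the submitters' processing notes, the authors worked on build mm10 with TopHat2 2.1.0, cutadapt 1.14, Cuffdiff and Cufflinks 2.2.1; their options, the annotation and the strandedness are not stated in the sources used here. The deposited values were taken as FPKM, a unit not named with them, because Cufflinks makes it. The smallest steps between values were fitted as scaling with transcript length, which was not compared with an unscaled fit. The fit was loose, with a mean cosine of 0.34 to 0.35 where 1 is perfect. Depth was estimated from those steps in genes with 1 annotated transcript, with 200 bases taken off each length; it is approximate, so no count test was run. Members were matched by symbol and ratios computed in Python 3.11.15 (pandas 2.3.3, NumPy 2.4.6, SciPy 1.17.1) over all genes, with a pseudocount of 1, a mean of at least 1 FPKM and both libraries above 0. The calling step was run on simulated counts with planted changes larger than 2-fold, without failed estimates or a shift between libraries. That run therefore does not test the 2-fold calls made here. Shared sequence was the share of 50-base stretches of the longest coding transcript (GENCODE M21) found in transcripts of other genes. Reads were given to members by that transcript's length. The members and lists were chosen with earlier results of these data known. Named genes are all members and, of each pathway list, genes among the 8 highest in mean FPKM. Ppia, Rplp0, Ifnb1, Ifng, Cxcl10, Socs1, Dtx3l, Psmb9 and Trim34a were added after their values were seen. The B cell marker list is not reported here.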

Additional observations from a re-analysis of the deposited data

How the results depend on the processing

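For each of 3 comparisons 13 alternatives were tried: pseudocounts of 0.1, 5 and none, no filter or a mean of at least 5 FPKM, 3 scalings, 2 treatments of zeros, folds of 1.5 and 4, and, chosen after seeing the data, leaving out members that share 10% or more of their stretches with other genes. No member called at least 2-fold changed direction under those alternatives in which it had a ratio. With LPS against no treatment, 7 of 9 members were higher. With a mean of at least 5 FPKM 4 of 5 were, and 6 of 7 without those sharing stretches. Median-of-ratios scaling made 9 of 9 higher, beside 650 higher and 436 lower of 3396 genes. Counting every listed 0 as a measured value, 13 were higher and 5 lower of 22, beside 2605 and 1674 of all 7147 genes. With a pseudocount of 5 and at 4-fold 5 of 9 were higher. The median of 2.10 was 2.63 as a plain ratio, 1.57 with no filter and 1.13 with a pseudocount of 5. With apoptotic cells against no treatment, 3 higher and 3 lower of 13 became 3 and 4 with a pseudocount of 0.1 or none. They became 0 and 1 with a pseudocount of 5 or at 4-fold, and 1 and 1 of 8 members above 0 in all libraries. Median-of-ratios scaling gave 3 and 2, as Parp9 fell short of 2-fold, beside 537 and 415 of 3326 genes. Leaving out members that share stretches, Oas1g among them, gave 2 and 3 of 11. With a 0 as a value 8 were higher and 4 lower of 22, beside 2682 and 1378 of 7147 genes. With apoptotic cells against LPS, 0 higher and 7 lower became 7 and 11 with a 0 as a value, beside 1741 and 1423 of 7147 genes. The counts with a 0 as a value rest on listed zeros. The cause of the other differences was not tested, beyond fewer members entering. Of 198 single-member ratios recomputed with another pseudocount or scaling, 179 stayed within counting error and 19 moved; the other alternatives change only which members enter or the fold counted. No paired analysis was possible because each group holds 1 library. Precision is limited by depth: members under 1 FPKM rest on a few reads.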

Other observations

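Neighbouring members can be set side by side. Rsad2 and Cmpk2 lie next to each other on chromosome 12, Rsad2 from 26442746 to 26456452 on the minus strand and Cmpk2 from 26469204 to 26479837 on the plus strand in mm10. Both had their highest value with LPS and their lowest with apoptotic cells, 10.5 and 1.03 FPKM for Rsad2 and 1.65 and 0.344 FPKM for Cmpk2. Their counting intervals for apoptotic cells against no treatment, 0.276 to 1.33 for Rsad2 and 0.0835 to 2.42 for Cmpk2, both included 1. Cmpk2 also had a mean under 1 FPKM. An ISRE core was found in the promoter window of Rsad2 and none in that of Cmpk2. Parp9 on chromosome 16 shares 9.09% of its 50-base stretches with its partner gene Dtx3l. Parp9 was listed at 3.19, 0 and 7.95 FPKM with apoptotic cells, with LPS and without treatment, and Dtx3l at 1.74, 3.09 and 7.98 FPKM, highest without treatment in both. Oas2 and Oas3, at 120730333 to 120749853 and 120753098 to 120777661 on chromosome 5, are neighbours as well: Oas2 was listed at 0.255, 0 and 0.716 FPKM and Oas3 at 0.430, 5.06 and 0.343 FPKM in the same order. For apoptotic cells against no treatment, the counting intervals of the plain ratio were 0.0599 to 1.38 for Oas2 and 0.315 to 5.13 for Oas3, both including 1.

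The ISRE core was in the windows of 15 of 37 other interferon-stimulated genes, or 40.5%, beside 60.0% of the members and 3.99% of all genes. GAS core matches were in 8 of those 37, or 21.6%, and in 28.0% of the members.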
